A study of Homo sapiens with 12 samples.

Results

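The genes described here act in fatty acid oxidation and in the storage of lipid. They were chosen by name, for their known roles and with earlier results of these data in view, and are 10 of the 20375 genes in the files: the droplet coat proteins PLIN2 and PLIN3, the triglyceride synthases DGAT1 and DGAT2, the oxidation enzymes CPT1A, CPT2, ACADVL and HADHA, and the secreted or regulatory proteins ANGPTL4 and PDK4. Expression was measured by RNA sequencing of polyadenylated RNA in PE/CA-PJ41, an established human line of oral squamous cell carcinoma, a cancer of the mouth's lining epithelium. Control libraries came from untreated cells and had no culture time in the labels. The other groups received human plasma at 10% or platelet-rich plasma (PRP), which is plasma enriched in platelets, at 10%, each for 48 h. Each group had 4 libraries. All came from 1 cell line, and the labels do not state that replicates were grown as separate cultures. The p-values therefore reflect library-to-library spread, which may be technical.

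Cells burn long-chain fatty acids in the mitochondrion. The fatty acid is first coupled to coenzyme A, moved across the mitochondrial membranes by the carnitine shuttle (CPT1A at the outer membrane, CPT2 at the inner), and then shortened by beta-oxidation, in which ACADVL introduces the double bond of the first step and HADHA, as part of the trifunctional protein, carries out the following steps. Surplus fatty acid is built into triglyceride, the last step of which is made by DGAT1 or DGAT2, and is kept in lipid droplets coated by perilipins such as PLIN2 and PLIN3. Fatty acids also bind the peroxisome proliferator-activated receptors (PPARs), nuclear receptors that pair with RXR on DNA. PLIN2, ANGPTL4, PDK4 and CPT1A are among the classical PPAR targets, and the question here was whether these genes were higher in cells given plasma, a fluid that carries lipids.

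The windows upstream of 4 members are shown. PLIN2 and ANGPTL4 are textbook PPAR targets that were higher in treated cells, and PDK4 is one that had no reads. PLIN3, the other droplet coat gene that rose, is not one of the classical targets. Each line holds the 250 bases just before the RefSeq transcription start (GRCh38.p14), 5′ to 3′ on the gene's strand. Capitals mark matches, on either strand, to the GC box (GGGCGG), the TATA core (TATAA), the E-box (CACGTG) and the CCAAT box.

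PLIN2, chr9:19127493-19127742, minus strand: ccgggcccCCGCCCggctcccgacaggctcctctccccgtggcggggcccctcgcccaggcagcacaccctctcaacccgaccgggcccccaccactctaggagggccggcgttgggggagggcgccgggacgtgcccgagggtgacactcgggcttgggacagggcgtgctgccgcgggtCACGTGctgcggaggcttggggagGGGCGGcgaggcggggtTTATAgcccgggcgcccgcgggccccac

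ANGPTL4, chr19:8363905-8364154, plus strand: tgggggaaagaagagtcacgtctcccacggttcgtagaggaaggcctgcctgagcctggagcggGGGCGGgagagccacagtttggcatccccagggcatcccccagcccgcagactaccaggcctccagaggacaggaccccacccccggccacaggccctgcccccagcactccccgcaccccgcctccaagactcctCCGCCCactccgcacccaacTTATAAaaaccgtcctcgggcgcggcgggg

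PDK4, chr7:95596517-95596766, minus strand: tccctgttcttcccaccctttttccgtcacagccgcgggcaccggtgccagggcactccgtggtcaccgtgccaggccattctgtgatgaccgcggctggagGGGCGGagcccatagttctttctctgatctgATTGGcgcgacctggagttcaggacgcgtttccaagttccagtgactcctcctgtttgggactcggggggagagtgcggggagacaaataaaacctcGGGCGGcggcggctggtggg

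PLIN3, chr19:4867668-4867917, minus strand: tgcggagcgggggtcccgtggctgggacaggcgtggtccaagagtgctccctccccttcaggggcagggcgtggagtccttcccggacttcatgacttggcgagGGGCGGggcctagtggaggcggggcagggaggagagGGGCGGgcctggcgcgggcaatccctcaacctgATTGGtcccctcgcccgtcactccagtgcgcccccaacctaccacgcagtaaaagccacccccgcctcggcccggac

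PLIN2 had a match to the TATA core on the opposite strand only, 28 bases before its start, and an E-box 69 bases before it. ANGPTL4 had a TATA core on its own strand near its start. PDK4 and PLIN3 had no TATA core on either strand and carried a CCAAT box instead, 117 and 77 bases before the start. Such letters are common: a TATA core stood in 18.9% of the 35116 windows of this length in the table, a CCAAT box in 32%, a GC box in 42.6% and an E-box in 6.34%. Windows were found for 8 of the 10 members, with 2 for ACADVL, and the table used did not list DGAT1 or DGAT2. The direct repeat that PPAR and RXR bind, AGGTCA followed by any base (N) and AGGTCA again, was in 0 of the 9 member windows and in 0.0171% of all windows. Its single unit AGGTCA was also in 0 of 9, against 12.1% of all windows. A match is a description of the letters, and their absence from 250 bases says nothing of sites elsewhere.

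Values are TPM, a gene's share of all transcripts in its library, which divides reads by transcript length and can be compared between genes of a library. A group mean is given with its SD over 4 libraries. Differences are taken after adding 1 TPM and a log2 transform, so the change of a gene near 1 TPM is understated. They come from limma fitted over the 12517 genes that reached 1 TPM in 4 or more libraries. A gene was called where its adjusted p was under 0.05. Of the 10 members, 8 were tested, and PDK4 and DGAT2 were too low. In bulk RNA, fewer cells of a type and less RNA per cell cannot be told apart.

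Total reads ran from 36258955 to 41976136 per library, and no pair of replicates agreed within sampling noise. All 6 markers of squamous epithelium, KRT5, KRT14, KRT17, TP63, EPCAM and CDH1, were present in every library, with a summed level of 9882 to 10853 TPM in control. The sum was 12550 to 13681 TPM in plasma libraries and 12416 to 13809 TPM in PRP libraries, with KRT5 at a mean of 4784, 7645 and 7677 TPM in control, plasma and PRP and KRT17 in the other direction, at 2696, 1793 and 1647 TPM. Of the 4 platelet markers, PF4 and GP9 were at 0 in all libraries, and the sum of the list was at most 0.693 TPM in control, 0.634 TPM with plasma and 0.424 TPM with PRP. Of the red cell list HBB and ALAS2 were at 0 as well, and HBA1 had at most 24 reads, with a mean of 1.46, 0.778 and 2.27 TPM in control, plasma and PRP. Of the leukocyte list PTPRC was at 0.621, 0.0935 and 0.0491 TPM with at most 35 reads and LYZ at 1.04, 1.116 and 1.08 TPM. The part of these low levels in the results was not tested.

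Of the 8 tested members, 5 rose in cells given plasma, PLIN2, PLIN3, ACADVL, HADHA and ANGPTL4, and 0 fell (limma, adjusted p under 0.05). In cells given PRP the same 5 rose and CPT2 fell. Both counts of rises include PLIN2, which passed the filter on low values only through the treated groups. Changes were common among all genes. With plasma 49.3% of tested genes were called, 20.3% higher and 29% lower, and with PRP 53.1%, 21.7% higher and 31.5% lower. After centring each library on its median, the split was 3309 higher to 2803 lower with plasma and 3534 to 3016 with PRP, in place of 2544 to 3629 and 2711 to 3941. The median difference of the 8 members was 0.23 with plasma and 0.23 with PRP, against -0.05 and -0.06 over all tested genes. Both comparisons use the same control libraries, so they are not independent of each other.

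**Figure D1:**
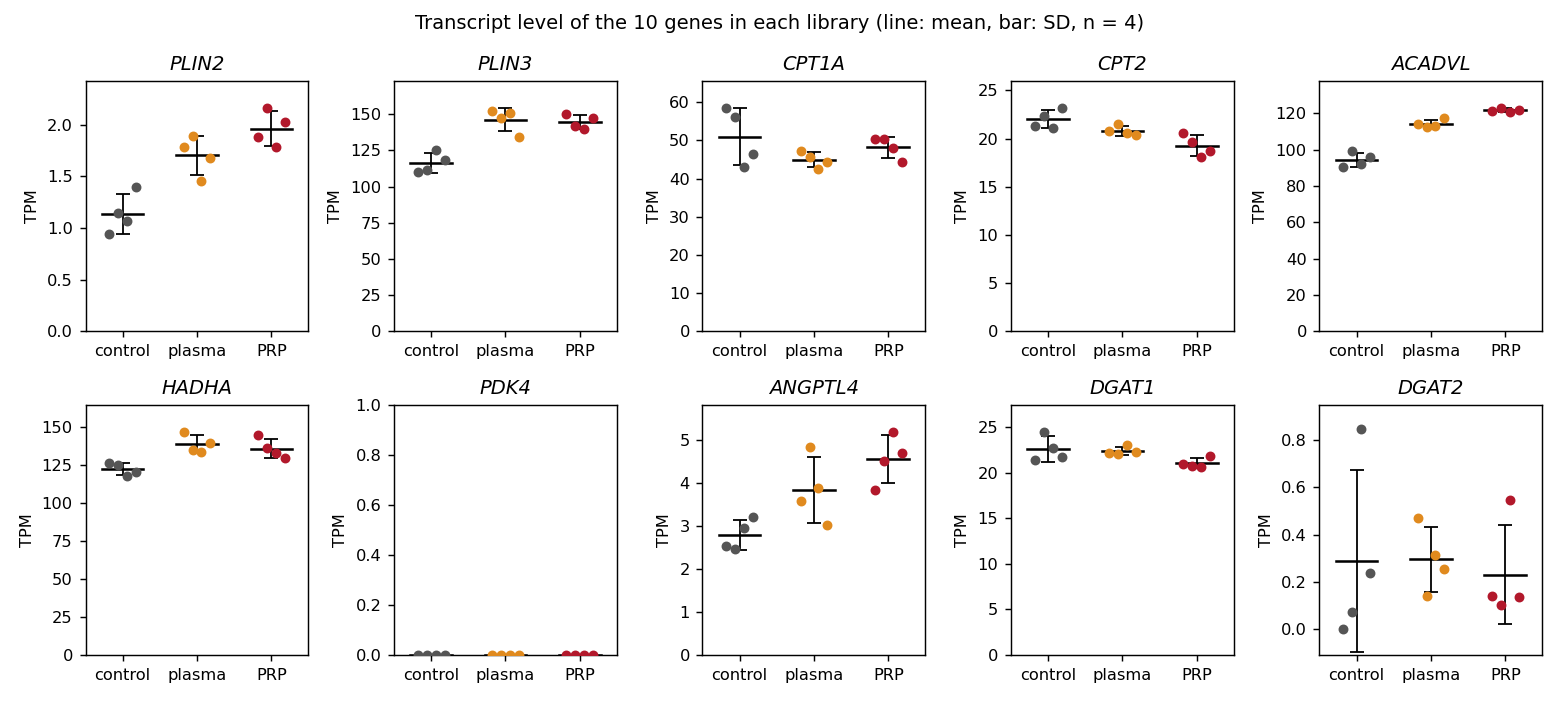
TPM of the 10 members in every library, 1 panel per gene with its own axis from 0 (DGAT2 below 0 only for its error bar): points are libraries, lines group means and bars the SD over 4 libraries. PLIN2, PLIN3, ACADVL and HADHA stand above control in all 8 treated libraries, PDK4 is at 0 in all 12, and CPT1A has 2 high and 2 low control libraries.

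PLIN2, which coats lipid droplets and is stabilised by lipid, was near the lower end of the tested genes. It read 0.937, 1.14, 1.06 and 1.39 TPM in the control libraries, 1.78, 1.89, 1.46 and 1.68 TPM with plasma, and 1.88, 2.16, 1.78 and 2.03 TPM with PRP. Every treated library was above every control library. The same held for 18.2% of tested genes with plasma and 19% with PRP. The mean was 1.13 ± 0.192 TPM in control, 1.70 ± 0.186 TPM with plasma and 1.96 ± 0.167 TPM with PRP (SD, n = 4), a rise of 50.2% and 73.1%. On the log2 scale this was 0.34 ± 0.096 (SE, limma adjusted p = 0.00926) and 0.48 ± 0.096 (adjusted p = 0.000907). Control replicate 1 was below 1 TPM. PLIN2 thus passed the filter on low values only through the treated groups, and its higher calls are not an independent test. With no filter on low values its plasma difference was called as well (limma adjusted p = 0.00473).

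Few reads lay behind these PLIN2 values: 35 to 47 per control library, 67 to 77 per plasma library and 72 to 96 per PRP library. The transcript length that the reads were divided by also moved. It was 1428, 1634, 1633 and 1189 bases in the control libraries and 1615 to 1635 bases in the treated ones, so that its share of all reads rose further than TPM, 1.72-fold with plasma and 1.98-fold with PRP. On estimated reads with limma's voom the log2 differences were 0.81 and 1.03. The plasma call was lost without the 3 libraries numbered 1 (limma adjusted p = 0.0734).

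PLIN3, the broadly expressed perilipin that moves from the cytosol onto new droplets, was far more abundant. Control libraries held 110.3, 111.5, 125 and 118 TPM, plasma libraries 152, 147, 151 and 134 TPM, and PRP libraries 150.0, 142, 140.0 and 147 TPM. The control libraries did not overlap with either treatment, and the treatments overlapped with each other. The mean rose from 116 ± 6.87 TPM to 146 ± 8.14 TPM with plasma and 145 ± 4.68 TPM with PRP (SD, n = 4). The log2 difference was 0.33 ± 0.049 with plasma (SE, limma adjusted p = 8.92e-05) and 0.31 ± 0.049 with PRP (adjusted p = 0.000109), with 5245 to 7749 reads behind each library's value.

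PLIN3 made up at least 98.15% of the TPM of the 5 perilipins in every library. Its ratio to PLIN2 ran from 84.8 to 118 over control libraries, from 77.7 to 104 over plasma libraries and from 65.4 to 79.7 over PRP libraries. The control range lay wholly above the PRP range and overlapped with that of plasma.

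The triglyceride synthases that fill the droplet gave no call. DGAT1, which also esterifies other lipids, read 21.4, 24.5, 22.8 and 21.7 TPM in control, 22.1, 22.1, 23.1 and 22.3 TPM with plasma, and 21.0, 20.8, 20.7 and 21.9 TPM with PRP. Plasma libraries lay inside the control range, and its log2 difference of -0.01 (limma adjusted p = 0.866) turned positive under median centring, under both median-of-ratios settings and without control replicate 2. The PRP difference was -0.09 (adjusted p = 0.128, 95% interval -0.20 to 0.01). DGAT2, the second synthase, had 0 to 19 reads per library and 0 to 0.848 TPM, and its groups overlapped throughout. An exact two-sided permutation test, whose smallest possible p here is 0.0286, gave p = 0.971 for plasma and 0.8286 for PRP against control (adjusted p = 0.971 for each, over 3 comparisons).

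Of 16 droplet proteins listed, 10 were tested. Plasma raised 5 and lowered 0, and PRP raised 6 and lowered 2. Over all tested genes 20.3% were called higher and 29% lower with plasma, and 21.7% and 31.5% with PRP. The raised genes include the members PLIN2 and PLIN3, described above, and PLIN2 passed the filter on low values only through the treated groups. The median difference of the 10 droplet genes was 0.24 with plasma and 0.28 with PRP. AUP1, a protein of the droplet surface and endoplasmic reticulum, rose from 100.03 ± 5.36 TPM to 153 ± 9.01 TPM with plasma (limma log2 difference 0.61, adjusted p = 2.69e-07) and 159 ± 5.10 TPM with PRP (0.67, adjusted p = 9.37e-08). HILPDA, an inhibitor of the triglyceride lipase PNPLA2 that is induced by hypoxia and by PPARs, rose from 10.8 to 16.3 TPM with plasma and 15.2 TPM with PRP. HSD17B11, a droplet enzyme, rose from 6.22 to 8.76 and 8.72 TPM. CIDEC, which fuses droplets, was lower with PRP, at 1.64 TPM against 2.47 TPM in control (adjusted p = 0.0202), with 29 to 56 reads, and its plasma value of 1.83 TPM was not called (adjusted p = 0.0589). CIDEC was picked with its values known.

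Lipases that empty the droplet went both ways. Of 6 tested, plasma raised 1 and lowered 2, and PRP raised 2 and lowered 3. Both directions were also common among all tested genes, at 20.3% higher and 29% lower with plasma, and 21.7% and 31.5% with PRP. MGLL, which splits off the last fatty acid (picked once its values were known), rose from 1.84 to 3.21 and 3.68 TPM. LIPA, the lysosomal lipase for lipoprotein lipid, fell from 177 to 140.2 and 149 TPM, and ABHD5, the activator of PNPLA2, from 27.2 to 21.6 and 23.9 TPM. PNPLA2 itself was 45.3, 42.8 and 40.8 TPM in control, plasma and PRP and was called lower with PRP alone (limma adjusted p = 0.0357, 0.255 with plasma), a call made in 13 of 22 other settings.

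Enzymes that build glycerolipid were more often lower than higher. Of 13 tested, plasma raised 2 and lowered 6, and PRP raised 2 and lowered 7. Lower calls also outnumbered higher ones over all tested genes, at 29% and 20.3% with plasma and 31.5% and 21.7% with PRP. The medians of -0.08 and -0.14 stood beside -0.05 and -0.06 for all tested genes. On reads with voom the counts were 3 higher and 5 lower in each treatment. LPIN1, the phosphatase that makes the diacylglycerol used by DGAT1 and DGAT2 and a coactivator of PPAR alpha, fell from 93.9 ± 3.22 TPM to 55.6 ± 4.53 TPM with plasma (log2 difference -0.75, limma adjusted p = 2.49e-07) and 59.5 ± 3.65 TPM with PRP (-0.65, adjusted p = 7.12e-07). AGPAT5 fell from 31.1 to 22.5 TPM in each treatment. AGPAT3, another acyltransferase, rose from 21.8 to 26.3 and 28.7 TPM.

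ANGPTL4, a secreted inhibitor of lipoprotein lipase and a PPAR target, read 2.53, 2.45, 2.95 and 3.20 TPM in control, 3.57, 4.84, 3.89 and 3.02 TPM with plasma, and 3.83, 4.50, 5.19 and 4.70 TPM with PRP. All PRP libraries were above all control libraries. Plasma replicate 4 lay inside the control range. The mean rose from 2.78 ± 0.353 TPM to 3.83 ± 0.761 TPM with plasma and 4.56 ± 0.563 TPM with PRP (SD, n = 4). The log2 difference was 0.34 ± 0.118 with plasma (SE, limma adjusted p = 0.0262) and 0.55 ± 0.118 with PRP (adjusted p = 0.0013).

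The plasma call for ANGPTL4 was not held by every set of libraries. Its adjusted p was 0.0635 without control replicate 1, 0.0724 without control replicate 2, 0.0883 without plasma replicate 2, 0.0562 without plasma replicate 3 and 0.068 without the 3 libraries numbered 1. Control libraries held 76 to 111 reads of ANGPTL4. Plasma libraries held 127 to 171 and PRP libraries 138 to 193, both without overlap with control. Its mean effective length was longer with treatment, by 0.25 and 0.18 on the log2 scale, and voom on reads gave differences of 0.75 and 0.96.

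PDK4, the kinase that shuts off pyruvate dehydrogenase when fat is burned and one of the most used readouts of PPAR activity, had 0 reads in all 12 libraries. A floor of 3 reads per library would allow up to 0.0356 TPM in control, 0.0381 TPM with plasma and 0.0383 TPM with PRP (counting error only). Other kinases of the same family were present. PDK1 rose from 8.21 ± 0.664 TPM to 11.7 ± 0.735 TPM with plasma (limma log2 difference 0.47, adjusted p = 0.000164) and 12.2 ± 0.943 TPM with PRP (0.52, adjusted p = 5.67e-05). PDK2 was 23.9, 20.8 and 20.2 TPM in control, plasma and PRP, called lower with PRP (adjusted p = 0.0492) in 6 of 22 other settings, and PDK3 was 5.31, 6.08 and 6.29 TPM with no call. Over the 6 tested kinases and phosphatases of pyruvate dehydrogenase, 1 was called higher and 1 lower with plasma, and 1 and 2 with PRP. All tested genes had 20.3% higher and 29% lower with plasma, and 21.7% and 31.5% with PRP.

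**Figure D2:**
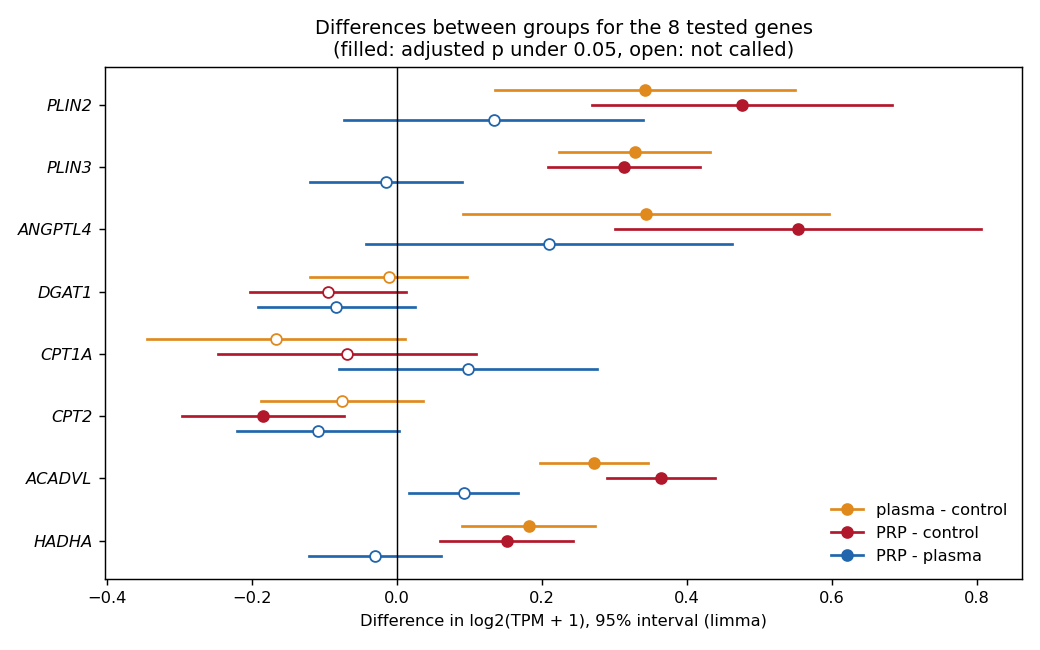
Difference in log2(TPM + 1) of the 8 tested members for each treatment minus control and for PRP minus plasma: points are limma estimates and bars their 95% intervals, filled where the adjusted p was under 0.05. PLIN2, PLIN3, ACADVL, HADHA and ANGPTL4 lie above 0 in both comparisons with control, and 0 members are filled for PRP against plasma. PLIN2 passed the filter on low values only through the treated groups.

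CPT1A, the gate of the carnitine shuttle, did not rise. It read 58.6, 56.0, 42.9 and 46.4 TPM in control, 47.3, 45.7, 42.6 and 44.3 TPM with plasma, and 50.3, 50.3, 48.0 and 44.5 TPM with PRP. The control libraries split: replicates 1 and 2 were above all treated libraries, and replicates 3 and 4 were inside the treated range. Mitochondrially encoded genes took 0.286% and 0.487% of reads in those first 2 control libraries and 0.938% and 0.969% in the other 2. Treated replicates 1 and 2 also had the lower shares of their groups, 0.216% and 0.476% with plasma and 0.191% and 0.463% with PRP, against 0.572% to 0.769% in replicates 3 and 4, and the part this has in CPT1A was not tested.

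The CPT1A mean was 51.0 ± 7.49 TPM in control, 44.99 ± 1.998 TPM with plasma and 48.3 ± 2.75 TPM with PRP (SD, n = 4). The differences of -0.17 with plasma (limma adjusted p = 0.112, 95% interval -0.35 to 0.01) and -0.07 with PRP (adjusted p = 0.509, -0.25 to 0.11) were not called. Without control replicate 3 the plasma difference was -0.24 and called lower (adjusted p = 0.0158). Without control replicate 1 the PRP difference was 0.00062, on the other side of 0. In none of the 22 other settings was CPT1A higher with plasma. Of the 3 enzymes that set malonyl-CoA, the inhibitor of CPT1A, plasma libraries had 1 higher and 1 lower and PRP libraries 1 higher and 0 lower, while voom on reads gave 0 higher and 1 lower for each treatment. The higher one was ACACB, a second enzyme that makes malonyl-CoA, at 0.672, 1.20 and 1.39 TPM in control, plasma and PRP. ACACB passed the filter on low values through the treated groups only, so its higher calls are not a test. Its mean reads were 99.5, 107.5 and 112, its mean effective length 6035, 3447 and 3308 bases, and voom did not call it. ACACA, which makes malonyl-CoA too, was 48.6 TPM in control and 39.7 TPM with plasma (limma adjusted p = 0.0424, called in 15 of 22 other settings) and 43.2 TPM with PRP (adjusted p = 0.211). Among all tested genes 20.3% were higher and 29% lower with plasma, and 21.7% and 31.5% with PRP.

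CPT2, which returns the fatty acid to coenzyme A inside the mitochondrion, read 21.3, 22.3, 21.2 and 23.2 TPM in control, 20.8, 21.5, 20.6 and 20.4 TPM with plasma, and 20.5, 19.7, 18.1 and 18.7 TPM with PRP. PRP libraries were all below control, as in 27.8% of tested genes, and plasma overlapped with control. With plasma 0 members had all libraries below control, against 25.7% of tested genes. CPT2 fell by 0.18 on the log2 scale with PRP (limma adjusted p = 0.00858), and median centring took it to the other side of the threshold (adjusted p = 0.0502). With plasma the difference was -0.08 (adjusted p = 0.248).

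ACADVL, the very-long-chain acyl-CoA dehydrogenase, read 90.5, 99.4, 91.9 and 95.7 TPM in control, 114, 112, 113 and 118 TPM with plasma, and 121, 123, 121 and 122 TPM with PRP. The groups did not overlap, and the order was control, plasma, PRP. The log2 difference from control was 0.27 ± 0.035 with plasma (SE, limma adjusted p = 2.52e-05) and 0.36 ± 0.035 with PRP (adjusted p = 1.43e-06). Its share of all reads rose 1.18-fold in each treatment, with mean effective length shorter than in control by 0.07 and 0.16 on the log2 scale. ACADVL shares 2926 bases with DLG4 on the opposite strand, and the strand setting of the counting is unknown here.

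HADHA, the alpha subunit of the trifunctional protein, read 126, 125, 117 and 120.1 TPM in control, 147, 135, 133 and 139 TPM with plasma, and 144, 136, 133 and 129.6 TPM with PRP. All treated libraries were above control, by 0.18 with plasma (limma adjusted p = 0.00298) and 0.15 with PRP (adjusted p = 0.00835). HADHB, its beta subunit and no member of the set, starts 307 bases away and is transcribed in the opposite direction. It rose further, from 72.7 ± 1.21 TPM to 95.8 ± 1.95 TPM with plasma (log2 difference 0.39, adjusted p = 2.69e-07) and 95.1 ± 0.857 TPM with PRP (0.38, adjusted p = 2.65e-07). The ratio of HADHA to HADHB ran from 1.65 to 1.71 over control libraries, from 1.42 to 1.49 over plasma libraries and from 1.35 to 1.52 over PRP libraries, with no overlap between control and either treatment.

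**Figure D3:**
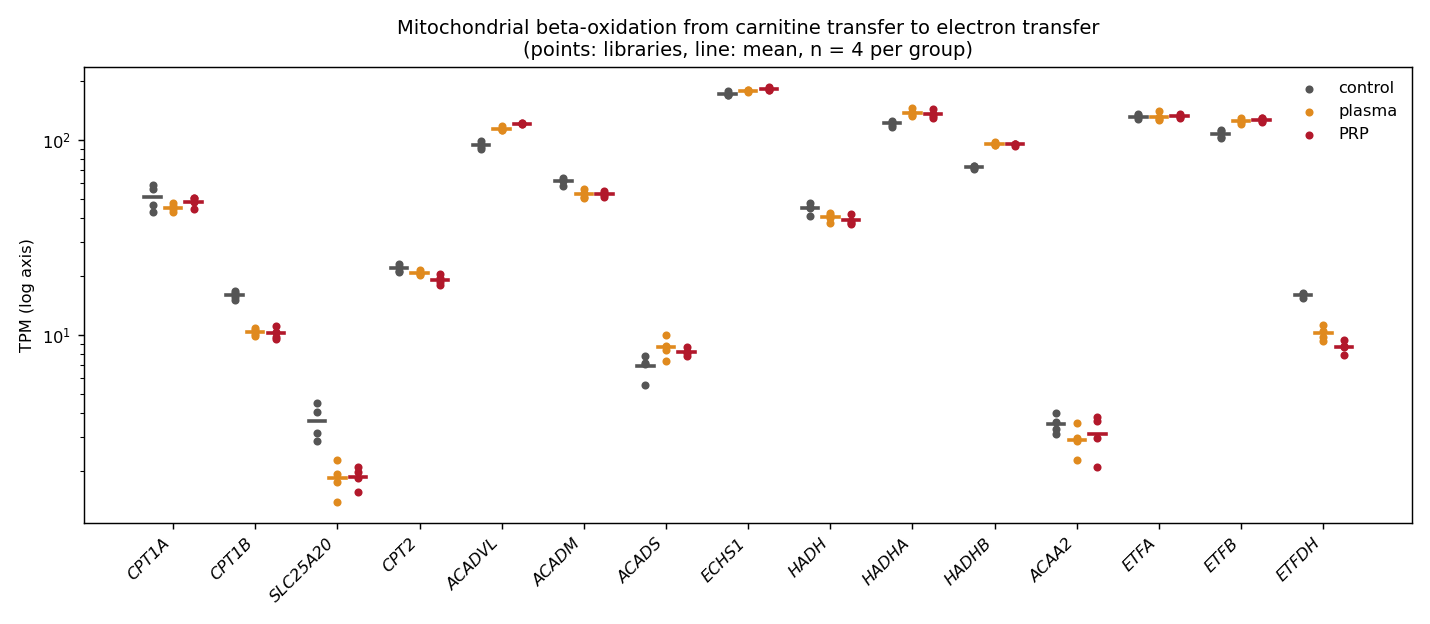
TPM of genes along the route of a fatty acid, from the carnitine shuttle through beta-oxidation to electron transfer, on a log axis: points are libraries and lines the mean of 4. ACADVL, HADHA and HADHB are higher in treated cells, while CPT1B, SLC25A20 and ETFDH are lower.

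Beta-oxidation genes did not move as 1 block. Of 22 listed, 20 were tested, and 5 were called higher and 5 lower with plasma, and 6 and 6 with PRP. All tested genes had 20.3% higher and 29% lower with plasma, and 21.7% and 31.5% with PRP. The median differences, -0.01 and -0.03, lay close to those of all tested genes. On estimated reads with voom the counts were 8 and 4 with plasma and 7 and 6 with PRP.

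Some genes next to each other on the route were called in opposite directions. ETFDH, which passes the electrons of beta-oxidation to the respiratory chain, fell from 16.1 ± 0.438 TPM to 10.2 ± 0.843 TPM with plasma (log2 difference -0.62, limma adjusted p = 6.29e-06) and 8.71 ± 0.605 TPM with PRP (-0.82, adjusted p = 3.52e-07). ETFB, which hands electrons to it and was picked with its values known, rose from 108 to 125 and 128 TPM. ETFA, its partner at that step and picked in the same way, was not called, at 132.1, 132.2 and 132.5 TPM in control, plasma and PRP. SLC25A20, the carrier that exchanges acylcarnitine between CPT1A and CPT2 and also picked with its values known, fell from 3.63 to 1.84 and 1.87 TPM. CPT1B, the muscle form of CPT1, fell from 16.1 to 10.4 and 10.2 TPM. CPT1B is uncertain, since it shares a readthrough transcript with its neighbour CHKB. Of the TPM of the CPT1 genes, CPT1A made up 72.9% to 77.1% over control libraries, 79.9% to 80.3% over plasma libraries and 80.6% to 83.0% over PRP libraries. ACADM, the medium-chain counterpart of ACADVL, likewise picked with its values known, fell from 61.7 to 52.9 TPM in each treatment. HADH, which acts on shorter chains at a step that HADHA carries out on long ones, was 44.6, 40.4 and 38.7 TPM in control, plasma and PRP, called lower in both, with plasma in 6 of 22 other settings and with PRP in 20 of 22.

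Peroxisomal oxidation, which shortens the longest chains, gave 2 of 16 tested genes higher and 1 lower with plasma, and 3 and 2 with PRP. On estimated reads with voom these counts were 5 and 1 with plasma and 7 and 2 with PRP. In TPM, all tested genes had 20.3% higher and 29% lower with plasma, and 21.7% and 31.5% with PRP. SCP2, a thiolase and sterol carrier, rose from 136 ± 7.57 TPM to 175 ± 5.24 TPM with plasma (limma adjusted p = 1.06e-05) and 169 ± 5.68 TPM with PRP (adjusted p = 2.97e-05).

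Genes that take up and activate fatty acids were called in both directions, 4 of 13 tested higher and 5 lower with plasma, and 5 and 5 with PRP. So were all tested genes, at 20.3% higher and 29% lower with plasma, and 21.7% and 31.5% with PRP. The counts of lower genes include FABP4, described below, which passed the filter on low values only through control. ACSL1, an acyl-CoA synthetase that supplies CPT1A and a PPAR target, fell from 219 ± 8.61 TPM to 158 ± 5.16 TPM with plasma (limma log2 difference -0.46, adjusted p = 2.69e-07) and 166 ± 3.81 TPM with PRP (-0.40, adjusted p = 9.1e-07). ACSL3, the synthetase of growing droplets, fell from 161 to 117 and 114 TPM, and the transporter SLC27A1 from 9.07 to 6.02 and 5.60 TPM. ACSL5 rose from 6.09 to 9.29 and 9.06 TPM. VLDLR, a lipoprotein receptor chosen after its values were seen, rose from 1.20 to 2.23 and 2.60 TPM.

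FABP4, the fatty acid carrier of fat cells and a PPAR gamma target, was likewise picked with its values known. It was at 2.10 ± 0.787 TPM in control, 0.2402 ± 0.195 TPM with plasma and 0.311 ± 0.214 TPM with PRP (SD, n = 4). Control libraries held 22 to 39 reads of it, plasma libraries 1 to 6 and PRP libraries 1 to 10. It passed the filter on low values through the control group only, so no test is given.

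**Figure D4:**
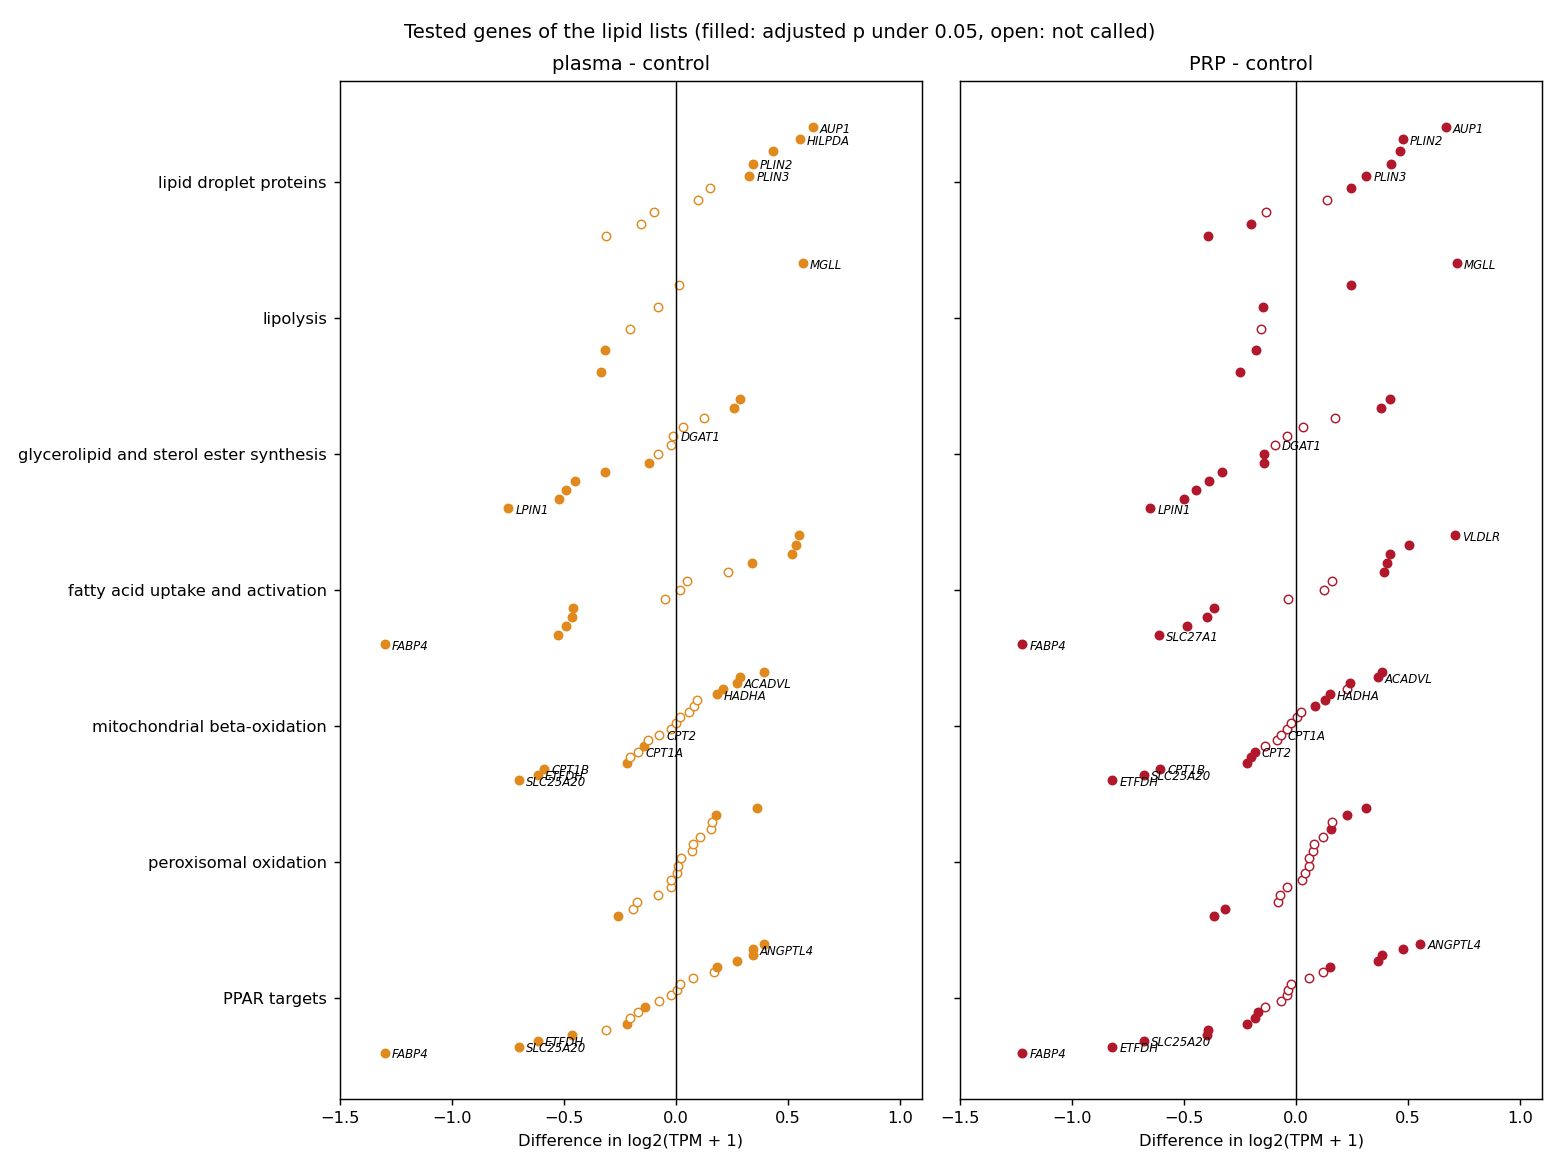
Difference in log2(TPM + 1) from control of every tested gene of 7 lipid lists, 1 point per gene, filled where the limma adjusted p was under 0.05. FABP4, drawn filled, passed the filter on low values only through control, and PLIN2, also filled, only through the treated groups. Droplet proteins lie mostly to the right of 0, glycerolipid synthesis genes mostly to the left, and beta-oxidation genes and PPAR targets on both sides.

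Known PPAR targets as a list did not rise together. Of 34 listed, 20 passed the filter on low values, 5 were called higher and 6 lower with plasma, and 5 and 8 with PRP. Among all tested genes 20.3% were higher and 29% lower with plasma, and 21.7% and 31.5% with PRP. The medians of -0.05 with plasma and -0.05 with PRP lay beside -0.05 and -0.06 for all tested genes. The 5 that rose with plasma were PLIN2, ANGPTL4, ACADVL, HADHA and HADHB, so 4 of them are members described above. SLC25A20, ETFDH, ACSL1 and ACADM were among those that fell. The counts of lower genes include FABP4, which passed the filter only through control. Those of higher genes include PLIN2, which passed it only through the treated groups. On reads with voom the counts were 5 and 5 with plasma and 6 and 6 with PRP.

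The receptors themselves were expressed and not called in TPM. PPARD was 29.1 ± 1.22, 31.6 ± 1.91 and 31.9 ± 1.45 TPM in control, plasma and PRP (limma adjusted p = 0.0991 and 0.0551 against control). PPARA was 12.4, 12.9 and 15.3 TPM (adjusted p = 0.916 and 0.125), while its mean reads went the other way, at 1822, 1726 and 1602, with a mean effective length of 5607, 5290 and 3980 bases. Its log2 difference with PRP was 0.28 in TPM and -0.14 with voom, which called it lower (adjusted p = 0.0403). PPARG was 2.25, 2.60 and 2.56 TPM (adjusted p = 0.273 and 0.331). RXRA, the partner of all PPARs on DNA, fell from 62.5 ± 2.06 TPM to 54.9 ± 0.401 TPM with plasma (adjusted p = 0.00124) and 52.7 ± 1.83 TPM with PRP (adjusted p = 0.000115). NRIP1, a corepressor of nuclear receptors, rose from 5.47 to 9.39 and 8.91 TPM, and ESRRA, an orphan receptor that drives oxidation genes, fell from 50.9 to 44.5 and 43.1 TPM. Among the 10 tested receptors and partners, calls with plasma were 1 higher and 2 lower, and calls with PRP 2 higher and 2 lower. The higher calls with PRP include PPARGC1B, which passed the filter on low values only through the treated groups. All tested genes had 20.3% higher and 29% lower with plasma, and 21.7% and 31.5% with PRP. On reads with voom the balance differed, at 3 higher and 1 lower with plasma and 4 higher and 3 lower with PRP.

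ANGPTL4, HILPDA and PDK1 are also known to be induced by hypoxia, and ANGPTL4 and PDK4 by glucocorticoids. Of 10 hypoxia markers, 6 were called higher and 3 lower with plasma, and 7 and 3 with PRP, with medians of 0.51 and 0.48. Among all tested genes 20.3% were higher and 29% lower with plasma, and 21.7% and 31.5% with PRP. CA9, a carbonic anhydrase chosen after its values were seen, was at 0.704 ± 0.2403 TPM in control, 3.05 ± 0.497 TPM with plasma and 4.15 ± 0.206 TPM with PRP. It passed the filter on low values through the treated groups only, so no test is given. The counts of higher hypoxia markers and their medians include CA9. VEGFA and ADM, also hypoxia genes, were called lower. Of 4 tested glucocorticoid markers, 0 were called higher in either comparison, and 2 and 1 were called lower. On reads with voom 0 were higher and 1 lower with plasma, and 1 higher and 1 lower with PRP. The part of hypoxia genes in the ANGPTL4 result was not tested.

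PRP and plasma were then compared with each other, which asks whether platelet content added to the response. None of the 8 members was called (limma, 0 of 8, with 0.0639% of all tested genes called, or 8 genes), and voom on reads also called 0. At an unadjusted p under 0.05 there was 1 member, ACADVL, and 999 genes. The 95% interval of PRP minus plasma was -0.07 to 0.34 for PLIN2, -0.04 to 0.46 for ANGPTL4, -0.12 to 0.09 for PLIN3 and -0.08 to 0.28 for CPT1A.

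ACADVL libraries given PRP were all above those given plasma in TPM, as in 2.63% of tested genes, with a log2 difference of 0.09 (adjusted p = 0.497). Its mean share of all reads differed by a ratio of 1.0001, and its effective length was shorter with PRP by 0.09 on the log2 scale. DGAT1 was lower with PRP in all libraries, as in 2.59% of tested genes, with a difference of -0.08 (adjusted p = 0.729). For DGAT2 the exact permutation test gave p = 0.571 (adjusted p = 0.971).

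**Figure D5:**
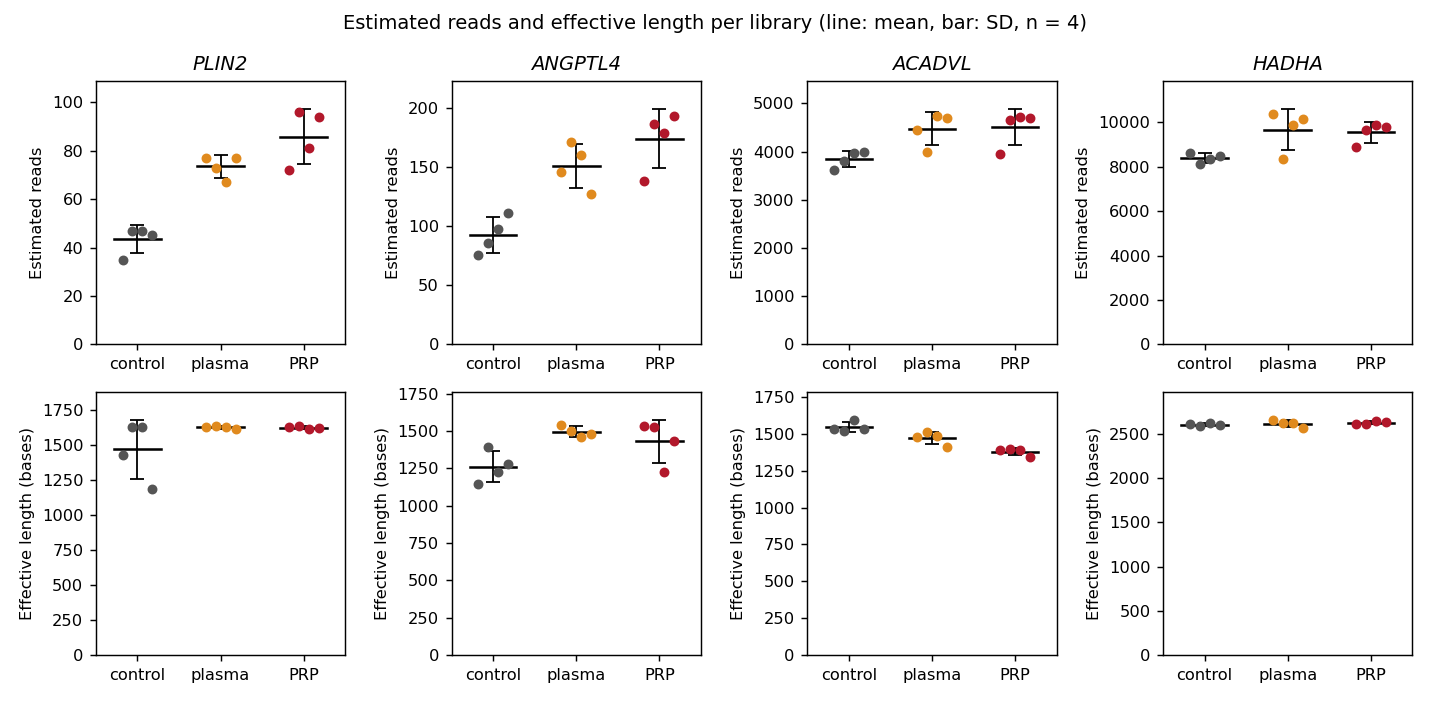
Estimated reads (upper row) and effective length in bases (lower row) of 4 members: points are libraries, lines group means and bars the SD over 4 libraries. Treated libraries hold more PLIN2 and ANGPTL4 reads than any control library, control libraries 1 and 4 have short PLIN2 lengths, and ACADVL lengths are shorter with PRP.

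In control cells the levels ordered as HADHA at 122 TPM, PLIN3 at 116, ACADVL at 94.4, CPT1A at 51.0, DGAT1 at 22.6, CPT2 just below it, ANGPTL4 at 2.78, PLIN2 at 1.13, DGAT2 at 0.290 and PDK4 at 0. HADHA and PLIN3 overlapped, as did DGAT1 and CPT2, and DGAT2 and PDK4, so those neighbours did not differ beyond their spread. In treated cells PLIN3 stood ahead of HADHA, again with overlapping libraries. Among the 12517 tested genes, 2.34% were below PLIN2 in control, 10.4% below ANGPTL4 and 89.3% below HADHA.

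Some genes followed a member closely over the 12 libraries, given here as a description with no test, since libraries of a group share their treatment. For PLIN2 the nearest of 10224 genes were CEP43 (Pearson r = 0.963), PUDP (0.962) and SAE1 (0.954). For ANGPTL4 they were CKS2 (r = 0.969), MCMBP (0.933) and FLYWCH2 (0.928), and for CPT1A, RTL10 (r = 0.918), PPP1R9B (0.912) and MLLT6 (0.911).

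The members lie apart on the genome (GRCh38.p14). PLIN2 spans chr9:19108388-19127492 and ANGPTL4 chr19:8364155-8374370. PLIN3 is on the same chromosome as ANGPTL4, at chr19:4838341-4867667. CPT1A spans chr11:68754620-68844277, CPT2 chr1:53196824-53214197, ACADVL chr17:7217125-7225266 and HADHA chr2:26190635-26244632. PDK4 lies at chr7:95583499-95596516. HADHA shares 13670 bases with GAREM2 on the opposite strand, and CPT2 shares 99 bases with CZIB.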

How the data were processed

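RNA of 12 libraries was sequenced after poly(A) capture, per the labels' protocols (RNeasy extraction, Watchmaker mRNA kit). The submitters' processing notes name Salmon and hg38. Salmon's version and the transcripts used were not given in the sources. Per the file headers, the deposited files hold TPM, estimated counts of reads and effective length for 20375 genes, with decimal commas. TPM recomputed from the deposited reads and lengths matched the deposited TPM for 120 of 120 member values within 1%. TPM is relative to all other RNA of a library and moves with effective length.

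Groups were compared on log2(TPM + 1) by limma with an intensity trend (R 4.3.3, limma 3.58.1), with 1 term per group over 12 libraries (9 residual degrees of freedom), for 12517 genes at 1 TPM or more in at least 4 libraries. Two-sided p-values were adjusted by Benjamini-Hochberg over all tested genes, at 0.05. DGAT2, below the filter, had an exact permutation test over samples. Decimal commas were converted when the values were read. The main test was on TPM, and no count model besides limma's voom was run. Voom on estimated reads was an alternative. Others were the pseudocount, the filter, the scaling, a fit of 8 libraries, a replicate block and leaving out libraries. The functions were tested on simulated data. Some genes are not reported here.

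The members and the 12 lists were chosen with earlier results of these data known. Named list genes were the 4 with the smallest adjusted p per list among those with a mean of at least 5 TPM, besides the members and a few fixed genes such as the PPARs; others are marked. Nearest genes were the 3 with the highest Pearson r. Promoter windows were read from RefSeq (GRCh38.p14) with Python 3.11.15, and figures drawn with matplotlib 3.10.9. Depth was 36258955 to 41976136 reads per library.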

Additional observations from a re-analysis of the deposited data

Results flagged for a closer look

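Within groups of 4 libraries, 30 sets of values (member TPM and total reads) were searched for a library whose gap to its nearest neighbour as a share of the group's range exceeded Dixon's 95% critical value, which chance gives in about 1 of 20 groups, or 1.5 of 30. There were 3. For DGAT2, PRP replicate 3 stood at 0.545 TPM with the next library at 0.139 TPM, on 15 reads against 6 to 8. Total reads of plasma replicate 2 were 36258955 with the next library of its group at 41752302, and those of PRP replicate 1 were 36943548 with the next at 41872643.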

How the results depend on the processing

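Each value was recomputed under 22 other settings (21 for PLIN2 and ANGPTL4, which a filter of 5 TPM removes). Called members with plasma numbered 5, and 3 under the filter of 5 TPM, where fewer genes were tested, and 3 without the 3 libraries numbered 1. Leaving out 1 library at a time gave 4 to 6 with plasma, 6 each time with PRP and 0 each time for PRP against plasma. Differences that changed sign were all uncalled. DGAT1 with plasma became 0.045 under median centring, 0.036 under median-of-ratios scaling and 0.048 with voom, and ran from -0.037 to 0.027 with 1 library left out (above 0 without control replicate 2). CPT1A with PRP ran from -0.146 to 0.00062 with 1 library left out (above 0 without control replicate 1). PLIN3 for PRP against plasma became 0.00066 with voom and ran from -0.054 to 0.0058 with 1 library left out (above 0 without plasma replicate 1 or 3 or PRP replicate 3). The cause was not tested. Of list genes named, the PRP call of CIDEC was made in 17 of 21 other settings and of ABHD5 in 20 of 22, and the plasma call of ESRRA in 19 of 22. The voom values of PLIN2 and ANGPTL4 against control, and of HADHA with PRP (0.24 against 0.15), were over 1.5 times those in TPM and kept their direction.

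Replicate numbers did not meet the criterion for pairing, a correlation over 0.1 in every pair: same-numbered deviations correlated at -0.0672 to 0.168 for plasma and control, 0.0276 to 0.152 for PRP and control and 0.0506 to 0.304 for PRP and plasma, and libraries matched their own number best in 2, 3 and 2 of 4 cases. The mitochondrial share of reads did follow the number, lowest in replicate 1 of each group and next in replicate 2. With the replicate block, 6 members were called with plasma, CPT1A being added as lower (limma adjusted p = 0.0347), 6 with PRP and 0 for PRP against plasma.

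Depth limits the low members: a library held 0 reads of PDK4, 0 to 19 of DGAT2 and 35 to 96 of PLIN2. The control libraries have no stated culture time, so treatment and time in culture cannot be told apart.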
